A study of Rattus norvegicus with 6 samples.

Results

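Hepcidin, the transferrin receptor and the genes that handle iron in the liver were followed after tienilic acid (TA) in male Sprague Dawley rats. The set holds 10 genes, chosen by name: Hamp, Tfrc, Tfr2, Tf, Slc40a1, Slc11a2, Hfe, Bmp6, Fth1 and Ftl1. They were chosen with earlier results of these data known. A gene was measured by the probe sets whose only symbol in the platform annotation is its own. By this rule 7 of the 10 genes had 14 probe sets, among 14217 genes with such a probe set in the series. Of these 14 probe sets, 11 passed the filter on low values, at least 1 for each of the 7 genes, and 3 of the 4 for Bmp6 lay at the floor of the array. Tf, the plasma carrier of iron, and the ferritin subunits Fth1 and Ftl1, which store it, have probe sets only under several symbols (2 for Tf, 1 for Fth1 and 1 for Ftl1) and were not analysed here.

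Liver RNA was measured on 6 Affymetrix rat arrays. TA is a uricosuric diuretic that was withdrawn because of hepatitis. The rats weighed 210 to 230 g and were dosed by gavage in 1 mL. The TA group of 6 h was killed 6 h after 1 dose of TA at 100 mg/kg in sodium bicarbonate, and its vehicle group after 1 dose of sodium bicarbonate alone. The TA group of 24 h was killed at 24 h after doses at 0 and 16 h, and its vehicle group after 2 doses of sodium bicarbonate at the same hours. Time and number of doses therefore differ together. Each TA group has 2 arrays of 1 rat each, and each vehicle group 1 array of RNA pooled from 2 rats. Nothing in the labels gives the rats' iron status, diet iron or blood counts, and protein was not measured.

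Iron enters most cells as transferrin taken up by the transferrin receptor, and leaves them only through ferroportin, the product of Slc40a1. Hepatocytes set this exit for the whole body by secreting hepcidin, the product of Hamp, which binds ferroportin and has it degraded. Hamp is raised by BMP6, released by liver sinusoidal endothelial cells when iron is plentiful, through BMP receptors and Smad proteins, with HFE and transferrin receptor 2 as sensors of loaded transferrin, and by interleukin 6 through STAT3. It is lowered by demand from red cell production and by hypoxia. Tfrc mRNA is held stable by iron regulatory proteins when a cell lacks iron, and is also high in dividing cells.

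The upstream sequences of Hamp and Tfrc are shown because these were the members with large differences, and because signals reach Hamp through known kinds of site. Of the 10 genes, 7 have a promoter entry in RefSeq (rat build GRCr8), with 8 windows of 250 bases before the start of transcription. Each was searched on both strands for GGCGCC, the core of the BMP-responsive element, TTCNNNGAA, the STAT site, and ACGTG, a form of the core of the hypoxia response element. Other forms of that core were not searched. Capitals mark the matches, and positions count back from the start. The Hamp window is chr1:95300272-95300521, minus strand, and the Tfrc window chr11:81690319-81690568, minus strand.
Hamp: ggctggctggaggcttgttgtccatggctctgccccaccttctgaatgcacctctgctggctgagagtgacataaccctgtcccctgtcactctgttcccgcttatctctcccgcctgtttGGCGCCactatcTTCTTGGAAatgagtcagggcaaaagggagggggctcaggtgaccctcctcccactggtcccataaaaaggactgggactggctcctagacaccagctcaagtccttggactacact
Tfrc: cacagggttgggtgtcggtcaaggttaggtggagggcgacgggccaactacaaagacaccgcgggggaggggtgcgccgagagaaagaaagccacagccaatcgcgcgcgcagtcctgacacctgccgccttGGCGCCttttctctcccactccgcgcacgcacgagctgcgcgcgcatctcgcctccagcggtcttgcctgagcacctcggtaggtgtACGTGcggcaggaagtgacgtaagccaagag
The Hamp window held GGCGCC at -129 and TTCTTGGAA at -117, which do not overlap, and no ACGTG. The Tfrc window held GGCGCC at -118 and ACGTG at -31, and no STAT site. None of the 3 motifs was found in the windows of Tfr2, Tf, Slc40a1, Slc11a2 or Bmp6. Of 33469 rat promoter windows of this length, 8.69% held GGCGCC, 7.67% TTCNNNGAA and 16.6% ACGTG, so a match is a description and not evidence of a working site.

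Values are the deposited log2 levels, on which a difference of 1 is a 2-fold change. The level of 1 probe set cannot be set against that of another. Array medians lay between 3.27 and 3.31. Most counts below are of genes higher or lower than the pool in both TA rats, and over all probe sets 21.0% were higher and 36.3% lower in both at 6 h, and 24.6% higher and 36.8% lower at 24 h. These shares depend on the scaling, since quantile normalization gave 30.3% higher and 30.5% lower at 6 h, and 32.2% higher and 26.1% lower at 24 h. Hepatocyte markers were bright on every array, with albumin (Alb) at 16.67 and 16.57 in TA and 16.63 in vehicle at 6 h, and at 16.54 and 16.60 in TA and 16.54 in vehicle at 24 h. Beside the shares above, 0 of 9 markers were higher and 1 lower in both TA rats at 6 h, and 5 higher and 2 lower at 24 h. The median difference was 0.00 at both times. Albumin does not stand for all, as Tat was 1.13 higher in the vehicle pool of 24 h than in that of 6 h. Fluidics runs were inferred from gaps between the times in the array settings. By these, the vehicle pool of 6 h and TA animal 1 of 6 h were in 1 run and the 4 other arrays in another. In whole liver, fewer cells of a type and less RNA per cell cannot be told apart.

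At 6 h, Hamp was lower and Tfrc higher in both TA rats than in the vehicle pool of their time, each by more than 2-fold. No other member was 2-fold away. At 24 h no member was 2-fold away in both rats. With limma, a linear model fitted to all 18625 probe sets, 0 of the 11 probe sets passed an adjusted p of 0.05 at 6 h, where 0.0% of all probe sets passed, and 0 of 11 at 24 h, where 0.00537% passed. At an unadjusted p under 0.05 there were 2 of 11 at 6 h, both of Tfrc, against 5.84% of all probe sets, and 1 of 11 at 24 h, the dimmer probe set of Slc11a2, against 5.28%. The fit has 2 residual degrees of freedom. The TA rats of a time share 1 pool, so a direction they have in common is not 2 separate pieces of evidence. A vehicle group has no replicate, and its error is taken to be like that of a TA rat.

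By size, both probe sets of Tfrc, 2 of the 11, exceeded the pool by 2-fold or more in each TA rat of 6 h, as did 0.231% of all probe sets. At least 2-fold lower was 1 of 11, Hamp, where 0.295% were. Both probe sets of Tfrc are of 1 gene. Since the members were chosen with earlier results known, their counts beside these shares are a description and not a test. At 24 h the counts were 0 of 11 higher, against 0.236% of all probe sets, and 0 of 11 lower, against 0.344%. Across both times, 0 of 11 probe sets had all 4 TA arrays above both vehicle pools, against 2.58% of all, and 0 of 11 had all 4 below both, against 5.43%. Over the 7 genes the median difference of TA from vehicle was 0.05 at 6 h and -0.04 at 24 h, beside -0.02 and -0.01 over all probe sets.

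**Figure D1:**
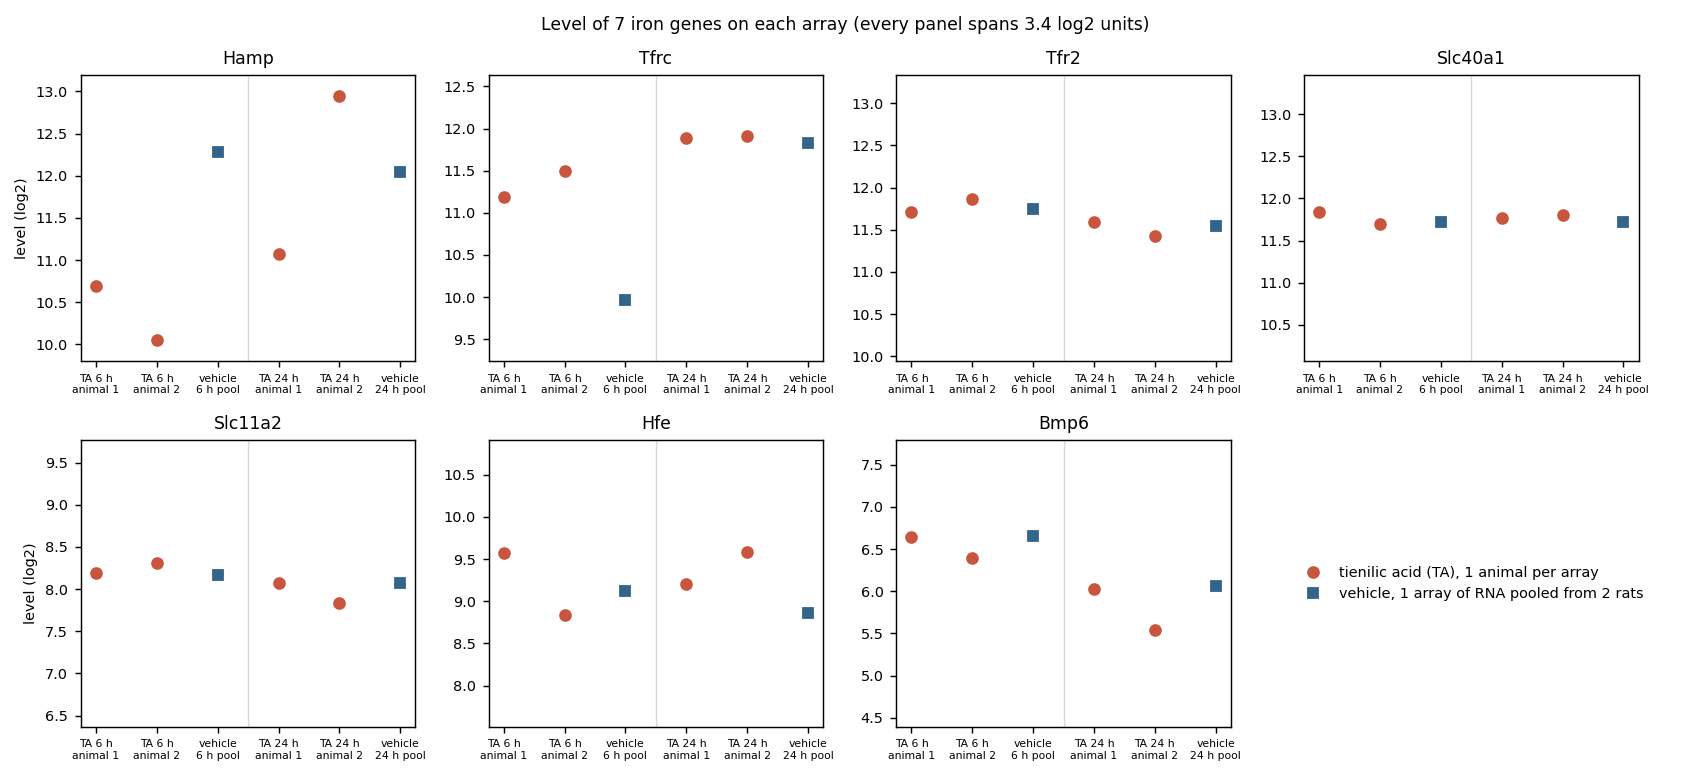
Deposited log2 level of the brightest probe set of each of 7 iron genes on every array. Circles are TA rats and squares vehicle pools of 2 rats, with 6 h left of the grey line and 24 h right of it. Hamp spans 2.90 over the 6 arrays and Tfrc 1.94, with its lowest value in the vehicle pool of 6 h, while Slc40a1 spans 0.14.

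Hamp, which encodes the hormone hepcidin, stood at 10.69 and 10.05 in the TA rats of 6 h, against 12.28 in their vehicle pool. It stood at 11.07 and 12.95 in the TA rats of 24 h, against 12.05 in theirs. Both TA rats of 6 h lay below every other array, and the vehicle pools were close together, 0.23 lower at 24 h than at 6 h. From the highest level down, the order was TA animal 2 of 24 h, the vehicle pool of 6 h, the vehicle pool of 24 h, TA animal 1 of 24 h, and then animals 1 and 2 of 6 h.

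The difference of TA from vehicle at 6 h was -1.91 ± 0.91 (SE, n = 2 TA rats), with a 95% interval from -4.56 to 0.73 (limma, adjusted p = 0.94). The 2 rats differed from the pool of 6 h by -1.59 and -2.23, and from the pool of 24 h by -1.37 and -2.01, so the size at 6 h did not hinge on which pool was used. Among 18625 probe sets this difference ranked 15 from the lowest. The wide error came from 24 h, where the TA rats stood 1.88 apart, at -0.98 and 0.90 from their pool, while the TA rats of 6 h were 0.64 apart. At 6 h 0 of the 11 probe sets had TA rats 2-fold apart, against 2.24% of all. At 24 h Hamp was the 1 member with TA rats at least 2-fold apart, as 2.89% of all probe sets were.

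At 24 h the mean difference of Hamp was -0.04 ± 0.91 (SE, n = 2), with a 95% interval from -2.68 to 2.60 (limma, adjusted p = 1.0), which holds changes of over 4-fold either way. Without TA animal 1 of 24 h it was 0.90, and without animal 2 it was -0.98. The effect at 24 h minus that at 6 h was 1.87 ± 1.29 (limma, adjusted p = 1.0, where 0.00537% of all probe sets passed). TA rats of 24 h minus TA rats of 6 h gave 1.64 ± 0.74 (n = 2 each; limma, adjusted p = 0.44, where 0.0% passed). No difference in Hamp therefore exceeded the spread between rats by this test.

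Markers of red cells and reticulocytes, whose number in a liver sample depends on its blood, are given beside Hamp. Of 10 such genes, 6 had a probe set of their own and 5 passed the filter. Klf1 was below it. The mean level of the 5 was 7.41 and 8.27 in the TA rats of 24 h against 7.81 in the vehicle pool, and 7.61 and 7.74 in those of 6 h against 7.33. Alas2, the red cell enzyme that begins heme synthesis, stood at 9.36 and 10.99 in the TA rats of 24 h against 10.43 in vehicle, and at 10.32 and 9.92 in those of 6 h against 9.79. At 24 h animal 1 was below and animal 2 above the pool for Alas2, and likewise for Ahsp, a chaperone of hemoglobin, at 5.65 and 6.42 in TA and 5.92 in vehicle, and for the globin Hbb, at 13.43 and 14.13 in TA and 13.93 in vehicle. The other two markers lay on one side in both rats of 24 h, with Slc4a1, the red cell anion exchanger, above the pool at 5.25 and 6.21 in TA and 5.18 in vehicle, and the membrane protein Epb42 below it at 3.36 and 3.57 in TA and 3.59 in vehicle. At 6 h, where Hamp was below its pool in both rats, Alas2 was above its pool in both. Slc4a1 was at 5.37 and 5.46 in TA and 4.23 in vehicle. It was the 1 marker of the 5 at least 2-fold higher in both, against 0.231% of all probe sets. Against the pool of 6 h, 3 of the 5 were higher in both TA rats of 6 h, where 21.0% of all probe sets were. Lower in both were 0, where 36.3% were. Against the pool of 24 h, 1 of the 5, Slc4a1, was higher in both TA rats of 6 h, where 30.1% of all probe sets were. Lower in both were 2, Alas2 among them, where 32.1% were. The median difference at 6 h was 0.30 against the pool of 6 h and -0.21 against that of 24 h. The part of these markers in the Hamp values was not tested.

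Tfrc, the transferrin receptor that brings iron into cells, stood at 11.19 and 11.50 in the TA rats of 6 h, against 9.97 in their vehicle pool. At 24 h it stood at 11.89 and 11.91 in the TA rats, against 11.83 in theirs. Of the 6 arrays the vehicle pool of 6 h had the lowest level, by 1.21, and the 3 arrays of 24 h lay within 0.08 of each other.

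The difference of TA from vehicle was 1.37 ± 0.17 at 6 h (SE, n = 2 TA rats; 95% interval 0.88 to 1.86; limma, adjusted p = 0.73) and 0.07 ± 0.17 at 24 h (95% interval -0.43 to 0.56; adjusted p = 1.0). The second Tfrc probe set, dimmer, stood at 6.37 and 6.83 in TA and 4.89 in vehicle at 6 h, and at 7.32 and 7.40 in TA and 7.11 in vehicle at 24 h. Its difference was 1.71 ± 0.23 at 6 h (limma, adjusted p = 0.76) and 0.25 ± 0.23 at 24 h (adjusted p = 1.0). Both probe sets therefore gave the same picture, although both read the same RNA samples.

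The direction at 6 h hinged on the vehicle pool. Against the vehicle pool of 24 h, the TA rats of 6 h were lower in Tfrc, with differences of -0.65 and -0.33. Against the vehicle pool of 6 h, the TA rats of 24 h were higher, with 1.92 and 1.94. The pools themselves stood 1.86 apart on the brighter probe set and 2.22 on the dimmer one, and 2-fold between pools was reached by these 2 of the 11 probe sets and by 3.17% of all. The effect at 24 h minus that at 6 h was -1.30 ± 0.24 (limma, adjusted p = 1.0), and TA of 24 h minus TA of 6 h was 0.56 ± 0.14 (limma, adjusted p = 0.24). For the mean of both times Tfrc had 0.72 ± 0.12 (limma, adjusted p = 0.74, where 0.00537% of all probe sets passed). At an unadjusted p under 0.05 there were 3 of 11 probe sets for this mean, the 2 of Tfrc and the dimmer one of Slc11a2, against 6.42% of all, and the same 3 for the difference of effects, against 4.8%.

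Markers of dividing cells, in which Tfrc is known to be high, differed in the same sense between the pools. Of 10 such genes, 9 passed the filter, none lay below it and Rrm2 had no probe set of its own. Their mean level was 6.15 and 6.43 in the TA rats of 6 h against 5.93 in vehicle, and 7.01 and 7.04 in those of 24 h against 7.16. At 6 h 6 of the 9 were higher in both TA rats, against 21.0% of all probe sets, and 0 lower in both, against 36.3%, with a median difference of 0.24. Against the vehicle pool of 24 h, 1 was higher in both, where 30.1% of all probe sets were, and 8 were lower, where 32.1% were, with a median of -0.91. In the TA rats of 24 h, 2 of the 9 were higher than their own pool in both, against 24.6% of all probe sets. Lower in both were 5, against 36.8%. The median difference at 24 h was -0.12, while Tfrc was 0.06 and 0.08 above that pool. The mitotic checkpoint kinase Bub1 was at 6.23 and 6.58 in TA and 5.25 in vehicle at 6 h. At 24 h it was at 6.96 and 7.20 in TA and 7.32 in vehicle. Bub1 is shown for its likeness to Tfrc over the 6 arrays, so the order of pools they share follows from that choice. The part of dividing cells in the Tfrc values was not tested.

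**Figure D2:**
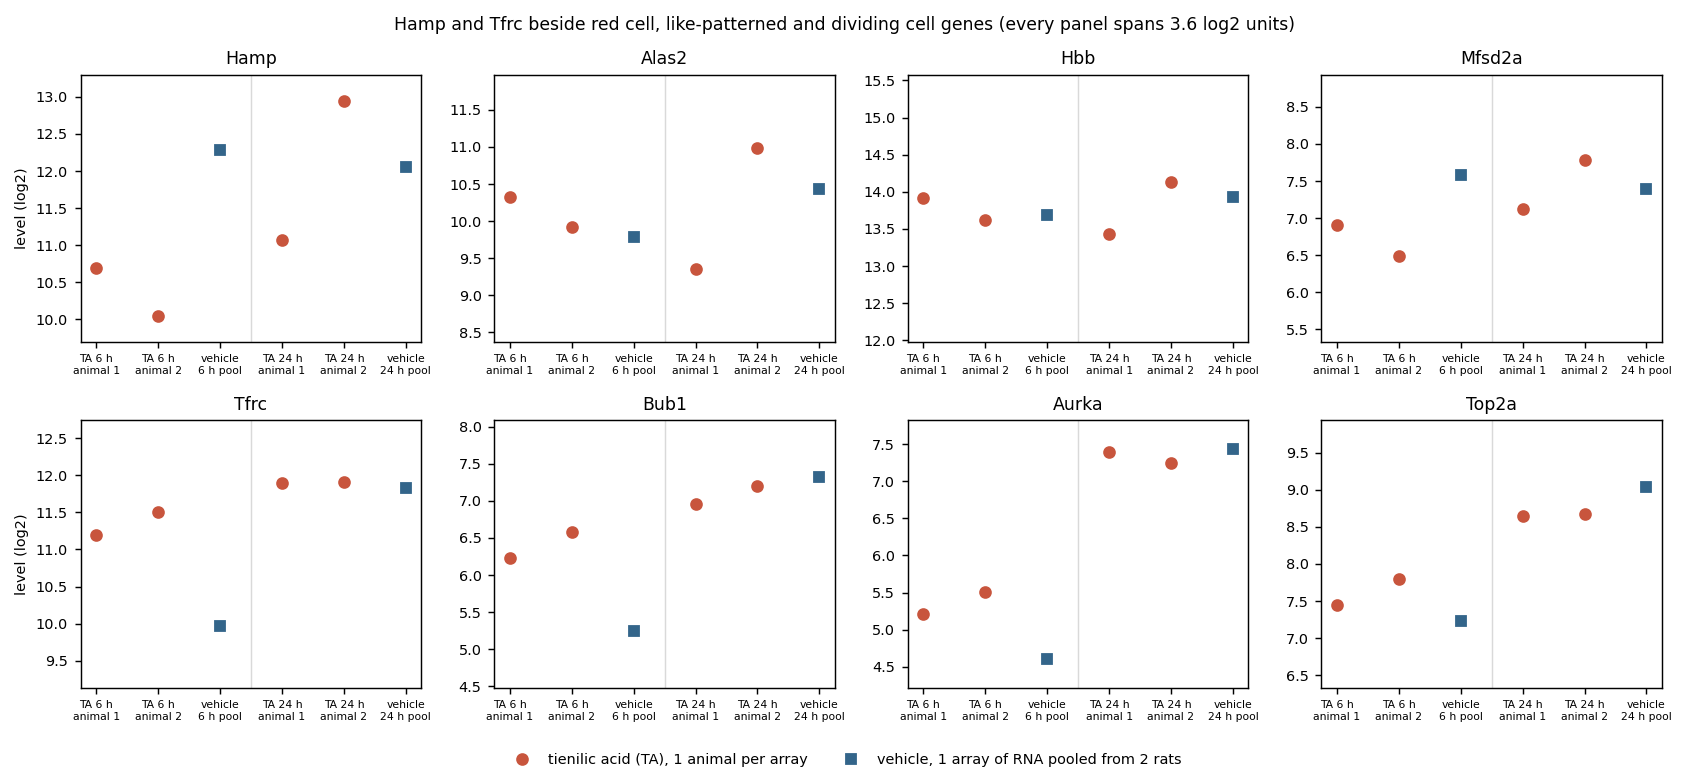
Hamp (top left) beside the red cell genes Alas2 and Hbb and the gene most like it, Mfsd2a, and Tfrc (bottom left) beside the dividing cell genes Bub1, Aurka and Top2a. The axis is the deposited log2 level, circles are TA rats and squares vehicle pools of 2 rats. Bub1, picked for its likeness to Tfrc, is lowest in the vehicle pool of 6 h, at 5.25, as Tfrc is. Alas2 and Hbb, 2 of 5 red cell markers above the filter, have the TA rats of 24 h on either side of the pool, while Slc4a1 and Epb42, not drawn, do not.

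The genes most like each member in pattern were sought among 1548 genes that ranged by at least 1 over the 6 arrays. Pearson's r over 6 arrays was highest with Hamp for Mfsd2a at 0.987, then Tpcn2 at 0.947, Akr1c1 at 0.941, Kif15 at 0.926 and Plin2 at 0.904. Mfsd2a, a lysolipid transporter, stood at 6.91 and 6.49 in TA and 7.58 in vehicle at 6 h, and at 7.13 and 7.78 in TA and 7.39 in vehicle at 24 h. With Tfrc it was highest for Sgo1 at 0.979, Bub1 at 0.974, Nuf2 at 0.970, Polr1e at 0.962 and Clca2 at 0.956, of which Sgo1, Bub1 and Nuf2 act in chromosome segregation. Between Tfrc and Hamp r was -0.077. These values describe 6 arrays that include 2 pools and 4 groups. With so many genes compared, high values also arise by search alone.

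The sensors and the BMP6 ligand above Hamp showed small differences. Tfr2, the hepatocyte receptor that senses loaded transferrin, stood at 11.71 and 11.86 in TA and 11.74 in vehicle at 6 h, and at 11.59 and 11.42 in TA and 11.54 in vehicle at 24 h. Its differences were 0.05 ± 0.14 (95% interval -0.35 to 0.45) and -0.04 ± 0.14 (-0.44 to 0.36), so that changes of 2-fold lay outside both intervals. Hfe, the hemochromatosis protein, stood at 9.57 and 8.84 in TA and 9.12 in vehicle at 6 h, and at 9.20 and 9.59 in TA and 8.86 in vehicle at 24 h. The TA rats of 6 h lay on either side of the pool and those of 24 h above it, with differences of 0.08 ± 0.39 (95% interval -1.04 to 1.20) and 0.53 ± 0.39 (-0.59 to 1.65; limma, adjusted p = 1.0 for both).

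Bmp6, the endothelial ligand, stood at 6.64 and 6.39 in TA and 6.65 in vehicle at 6 h, and at 6.03 and 5.54 in TA and 6.06 in vehicle at 24 h. Differences from vehicle were -0.13 ± 0.26 at 6 h (95% interval -0.90 to 0.64) and -0.28 ± 0.26 at 24 h (-1.05 to 0.49). All 3 arrays of 24 h lay below all 3 of 6 h. TA of 24 h minus TA of 6 h was -0.73 ± 0.22 (limma, adjusted p = 0.29), and the vehicle pools differed by -0.58 in the same sense. Markers of sinusoidal endothelium, 10 of 12 above the filter, had mean levels of 8.65 and 8.51 in TA and 8.48 in vehicle at 6 h, and of 8.12 and 8.38 in TA and 8.37 in vehicle at 24 h. At 24 h 5 of these 10 were lower in both TA rats, against 36.8% of all probe sets, and 2 higher, against 24.6%. Their median difference was -0.15. Markers of stellate cells, 8 of 10 above the filter, had mean levels of 9.43 and 8.78 in TA and 8.98 in vehicle at 6 h, and of 8.03 and 8.26 in TA and 8.72 in vehicle at 24 h. At 24 h 6 of these 8 were lower in both TA rats, against 36.8% of all probe sets, and 0 higher, against 24.6%, with a median difference of -0.57. The part of either cell type in the Bmp6 values was not tested.

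Between TA at 24 h and TA at 6 h, 0 of the 11 member probe sets were called, where 0.0% of all were, and 3 had an unadjusted p under 0.05, both of Tfrc and that of Bmp6, against 14.8% of all. Both rats of 24 h stood above both of 6 h for 3 of 11 probe sets, Hamp and the 2 of Tfrc, against 20.6% of all. They stood below for 4 of 11, against 22.0%.

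The exporter and the divalent metal importer were close to level. Slc40a1, ferroportin, stood at 11.84 and 11.70 in TA and 11.72 in vehicle at 6 h, and at 11.77 and 11.81 in TA and 11.72 in vehicle at 24 h. Differences were 0.05 ± 0.11 (95% interval -0.28 to 0.38) and 0.07 ± 0.11 (-0.26 to 0.40), both well inside 2-fold. Its other probe sets had differences of 0.00 ± 0.17 and 0.15 ± 0.12 at 6 h and of 0.29 ± 0.17 and -0.19 ± 0.12 at 24 h, without a common direction. Hepcidin acts on the ferroportin protein, which arrays do not measure.

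Slc11a2, the importer DMT1, stood on its brighter probe set at 8.19 and 8.31 in TA and 8.17 in vehicle at 6 h, and at 8.07 and 7.83 in TA and 8.07 in vehicle at 24 h. Differences were 0.08 ± 0.15 (95% interval -0.36 to 0.51) and -0.12 ± 0.15 (-0.56 to 0.32). Its dimmer probe set stood at 5.13 and 4.86 in TA and 4.20 in vehicle at 24 h, and at 4.90 and 4.92 in TA and 4.98 in vehicle at 6 h. Here the difference at 24 h was 0.80 ± 0.15 (95% interval 0.36 to 1.24; limma, adjusted p = 0.90). The 2 probe sets disagreed, and on the dimmer one the vehicle pool of 24 h was the array that stood apart, 0.78 below that of 6 h.

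**Figure D3:**
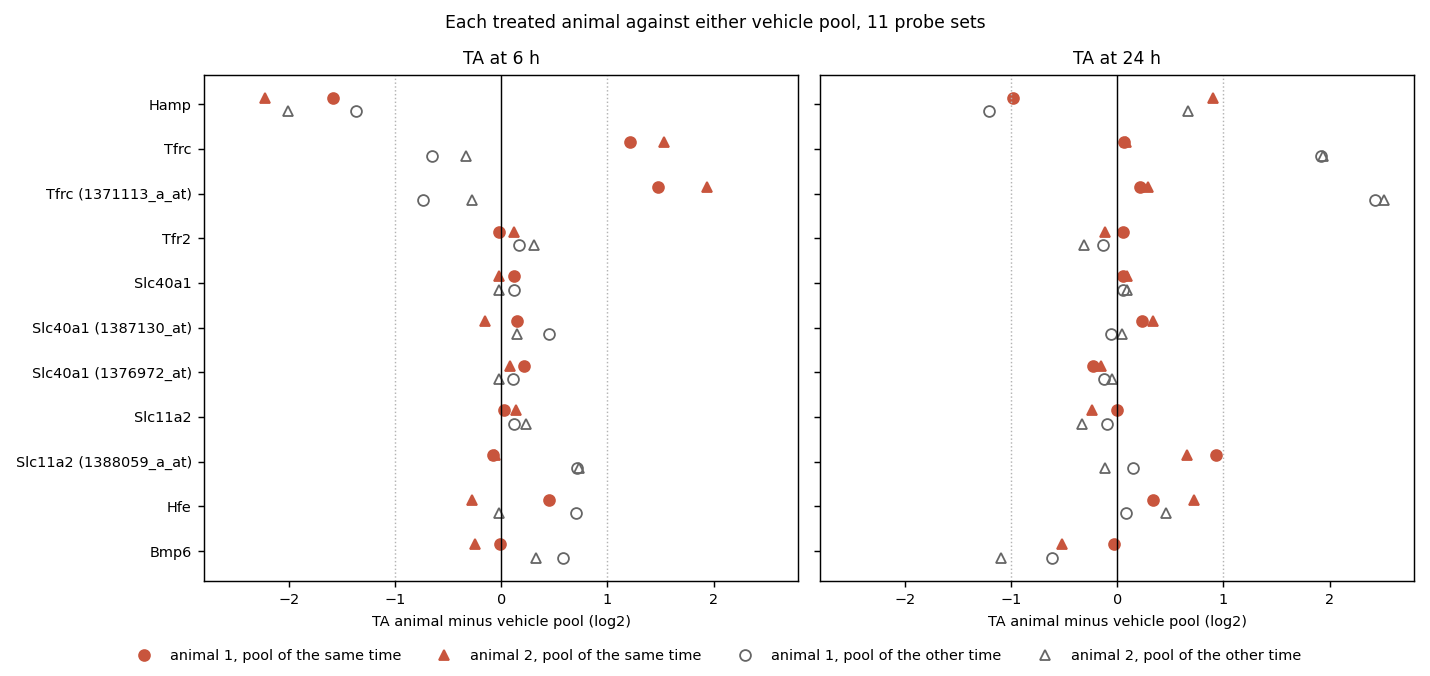
Difference of each TA rat from a vehicle pool (log2) for the 11 member probe sets, at 6 h (left) and 24 h (right). Filled symbols use the pool of the same time and open symbols the pool of the other time, and dotted lines mark 2-fold. At 6 h the filled and open symbols of Hamp lie on the same side, while those of Tfrc lie on opposite sides of 0.

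Other iron genes were taken from 7 lists of 91 genes, chosen with earlier results of these data known. Of these, 84 had a probe set of their own and 76 passed the filter. None of the 76 was called by limma at either time, and 0 were at least 2-fold from the pool in both rats in either direction. At an unadjusted p under 0.05, 2 were higher and 4 lower at 6 h, against 5.84% of all probe sets in either direction, and 1 was higher and 2 lower at 24 h, against 5.28%. All 4 TA rats lay above both pools for 3 of the 76 (Steap3, Slc48a1 and Blvra), against 2.58% of all probe sets, and below both for 5 (Bmpr2, Smad7, Pcbp1, Flvcr1 and Hif1a), against 5.43%. These 8 are named because they met that count. The median difference was -0.04 at 6 h and -0.02 at 24 h.

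The list of BMP and Smad genes, which holds both carriers and restrainers of the BMP6 signal to Hamp, leaned lower at 6 h. Of 19 genes 17 passed the filter. Tmprss6 and Erfe, which restrain this pathway, had no probe set of their own. Smad6 and Smad7, which also restrain it, are among the 17, so the counts do not give a direction of the signal. At 6 h 11 of the 17 were lower in both TA rats, against 36.3% of all probe sets, and 1 was higher in both, against 21.0%, with a median difference of -0.20. At 24 h 7 were lower, against 36.8% of all, and 4 higher, against 24.6%, with a median of -0.04. The lean at 6 h was relative to 1 vehicle pool: against the pool of 24 h, 3 of the 17 were lower in both TA rats of 6 h, where 32.1% of all probe sets were, and 5 higher, where 30.1% were, with a median of 0.06. With quantile normalization the median at 6 h was -0.11, with 10 lower and 4 higher beside 30.5% and 30.3% of all probe sets. None of the 17 was called.

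Within that list, Id1, a direct target of BMP signalling, stood at 4.72 and 5.39 in TA and 5.97 in vehicle at 6 h, and at 5.35 and 5.43 in TA and 4.73 in vehicle at 24 h. Its differences were -0.91 ± 0.32 (limma, adjusted p = 0.85) and 0.66 ± 0.32 (adjusted p = 1.0). The TA rats thus lay below their pool at 6 h and above it at 24 h, and the vehicle pools were the highest and nearly the lowest of the 6 arrays. Smad1, which BMP receptors phosphorylate, stood at 9.99 and 9.64 in TA and 10.42 in vehicle at 6 h, and at 9.95 and 10.13 in TA and 9.71 in vehicle at 24 h, with differences of -0.61 ± 0.20 (adjusted p = 0.84) and 0.34 ± 0.20. Acvr1, a BMP type I receptor, was at 8.21 and 8.43 in TA and 8.80 in vehicle at 6 h, a difference of -0.48 ± 0.14 (adjusted p = 0.83), and differed by -0.04 ± 0.14 at 24 h. Hjv, hemojuvelin, the BMP co-receptor, differed by 0.01 ± 0.19 and -0.23 ± 0.19.

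In the interleukin 6 and STAT3 list, 7 of 9 genes passed the filter, and Il6 itself and Socs3, the feedback inhibitor, lay below it. Il6r, the interleukin 6 receptor, stood at 8.92 and 8.68 in TA and 9.34 in vehicle at 6 h, and at 8.0 and 8.25 in TA and 7.98 in vehicle at 24 h. The TA rats of 6 h thus lay below their own pool and above the pool of 24 h. It differed from the pool of its time by -0.53 ± 0.18 at 6 h (limma, adjusted p = 0.85) and 0.14 ± 0.18 at 24 h. Stat3 stood at 9.74 and 10.33 in TA and 10.33 in vehicle at 6 h, and at 8.94 and 8.99 in TA and 9.74 in vehicle at 24 h, with differences of -0.29 ± 0.29 and -0.78 ± 0.29 (adjusted p = 0.95 at 24 h). Il6st, the shared signalling receptor, differed by 0.07 ± 0.10 and -0.30 ± 0.10, and Creb3l3, a liver factor that can raise hepcidin, by 0.15 ± 0.14 and 0.10 ± 0.14. These are mRNA levels and not the activity of the STAT3 protein, and the part of these genes in the Hamp values was not tested.

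**Figure D4:**
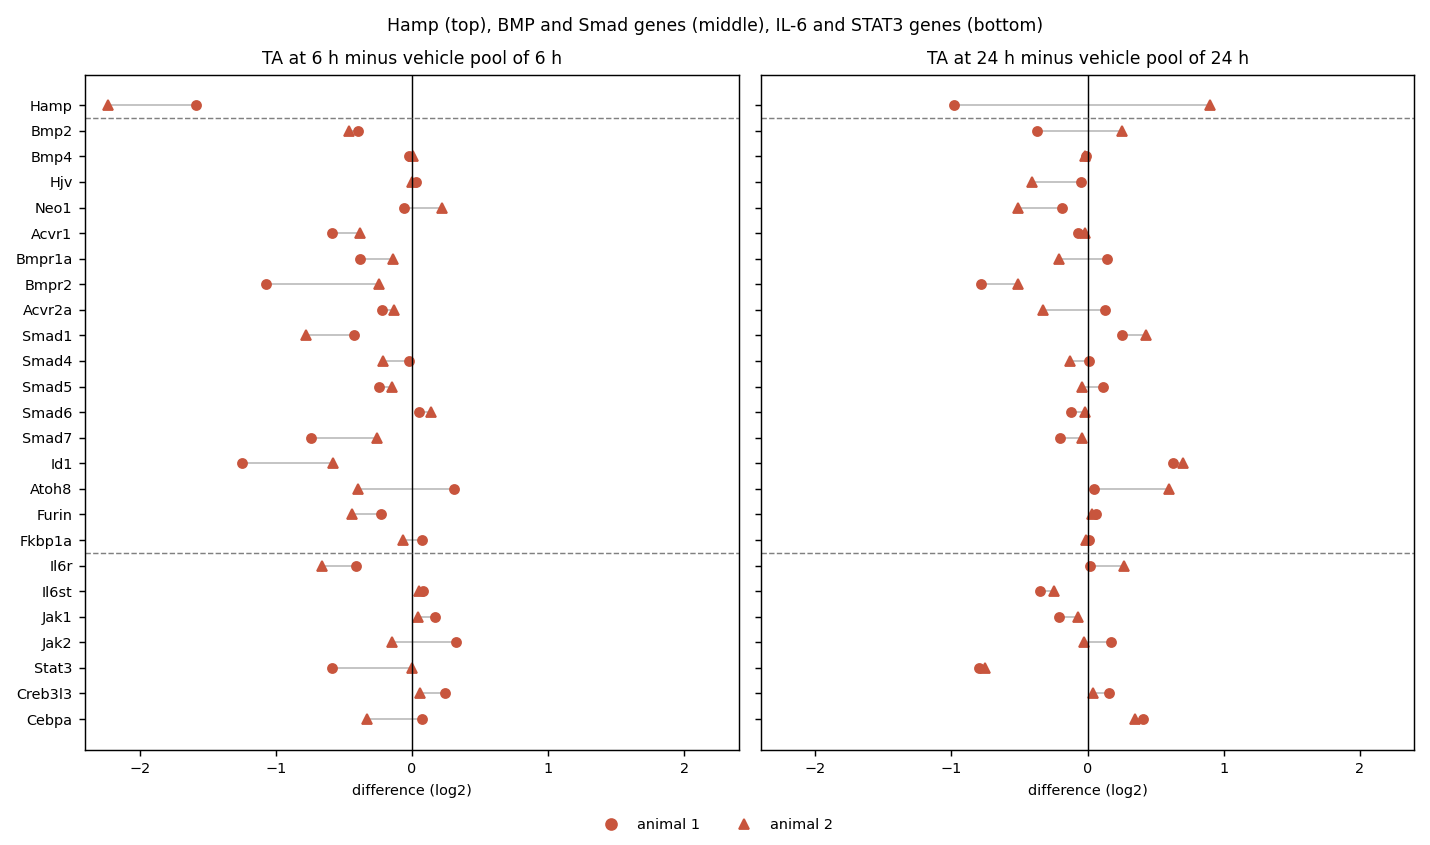
Difference of each TA rat from the vehicle pool of its time (log2), at 6 h (left) and 24 h (right), for Hamp, the 17 BMP and Smad genes and the 7 interleukin 6 and STAT3 genes above the filter. Circles are animal 1, triangles animal 2, and a line joins the rats of a time. At 6 h 11 of the 17 BMP and Smad genes lie left of 0 in both rats, all of them nearer 0 than Hamp, and at 24 h the rats of Hamp lie on opposite sides.

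The iron regulatory proteins, which read a cell's iron and set the stability of Tfrc mRNA, differed by little at the level of mRNA, which is not their activity. Aco1 had 0.04 ± 0.11 at 6 h and -0.08 ± 0.11 at 24 h, Ireb2 -0.20 ± 0.25 and -0.14 ± 0.25, and Fbxl5, which has Ireb2 protein degraded, 0.02 ± 0.15 and 0.13 ± 0.15. In the list of transport, storage and ferrireduction, 16 of 20 genes passed the filter, with 7 higher and 7 lower in both rats at 6 h (against 21.0% and 36.3% of all probe sets) and 5 higher and 8 lower at 24 h (against 24.6% and 36.8%). Steap3, a ferrireductase of the transferrin cycle, had 0.16 ± 0.12 and 0.32 ± 0.12. The iron chaperones Pcbp1 and Pcbp2 had -0.23 ± 0.09 and -0.31 ± 0.14 at 6 h, and the heme exporter Flvcr1 had -0.60 ± 0.14 at 24 h (limma, adjusted p = 0.89, 0.92 and 0.90).

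Genes of heme metabolism had a median difference of -0.01 at both times over 13 of 14 genes, with 3 higher and 4 lower in both rats at 6 h, against 21.0% and 36.3% of all probe sets, and 5 higher and 3 lower at 24 h, against 24.6% and 36.8%. Blvra, biliverdin reductase, stood at 7.64 and 7.44 in TA and 7.07 in vehicle at 6 h, and at 7.79 and 7.69 in TA and 7.43 in vehicle at 24 h, so that all 4 TA rats lay above both pools, with differences of 0.47 ± 0.14 and 0.31 ± 0.14 (limma, adjusted p = 0.83 and 1.0). Ppox, a late enzyme of heme synthesis, had 0.40 ± 0.11 and -0.08 ± 0.11, and Uros, an earlier one, -0.13 ± 0.22 and 0.27 ± 0.22.

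Iron-sulfur cluster genes had a median of -0.04 at 6 h and 0.14 at 24 h over 9 of 12 genes, with 1 higher and 5 lower in both rats at 6 h, against 21.0% and 36.3% of all probe sets, and 5 higher and 2 lower at 24 h, against 24.6% and 36.8%. Iscu, the scaffold protein, had -0.03 ± 0.09 and 0.22 ± 0.09, Lyrm4, a partner of the sulfur donor, -0.13 ± 0.10 and 0.26 ± 0.10, and Nubp2 -0.12 ± 0.09 and -0.04 ± 0.09. Hypoxia-inducible factors and targets had medians of -0.04 and 0.03 over 11 of 14 genes, with 2 higher and 5 lower in both rats at 6 h and 6 higher and 3 lower at 24 h, beside the same shares of all probe sets. Egln1, the oxygen sensing hydroxylase, had -0.54 ± 0.17 at 6 h, Ankrd37, a target, 0.57 ± 0.16 at 24 h, Slc2a1, a glucose transporter, -0.04 ± 0.11 and 0.27 ± 0.11, and Ldha, lactate dehydrogenase, -0.14 ± 0.10 and 0.03 ± 0.10. No gene of these lists passed limma's test, with adjusted p from 0.83 to 1.0 for those named.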

How the data were processed

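Per the labels, 6 arrays measured liver RNA. The values the authors deposited, for 31099 probe sets, are log2 levels. The submitters' processing notes list R 2.0.1, affy 1.5.8, RMA and GCRMA, and no source used here says which method made the table. Arrays have no counting depth, and their number limits precision.

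Control probe sets (57) were dropped. In the platform annotation, whose symbols can be outdated, 20826 probe sets have 1 symbol, 436 several and 9780 none. By gene identifier 20758 of the single symbols were found in RefSeq and 0 changed. Probe sets above the 40th percentile of the mean (2.82) were kept, 18625 in all. Limma 3.58.1 in R 4.3.3 fitted group means over all 6 arrays (2 residual and 1.6 prior degrees of freedom), two-sided, with Benjamini-Hochberg adjustment over all 18625. The procedure was run on data simulated from its own fitted spread, with vehicle arrays given the same error as TA arrays. That simulation cannot check how the pools behave.

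A gene's brightest probe set stood for it. All members were named, and in each other iron list genes at least 2-fold away in both animals and the 2 smallest p at each time. Marker genes were to be named only if at least 2-fold away in both animals, as Slc4a1 was, and Bub1 was named for its likeness to Tfrc. Alb, Tat, Alas2, Hbb, Ahsp, Epb42, Aurka, Top2a and Hjv lie outside these rules and were chosen after their values were seen. The members and lists were chosen with earlier results of these data known. Animals of the same number at 6 h and 24 h are different rats. Their deviations correlated at -0.08, so the numbers do not pair them. P-values measure the spread between these rats. Alternatives covered the filter, prior, normalization, vehicle pool, an additive model, fluidics run, replicate block, probe set summary and leaving out each TA rat. The counts of members without each TA rat, and list medians under other scalings and the other pool, were added after seeing the data.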

Additional observations from a re-analysis of the deposited data

Results flagged for a closer look

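For 3 of the 11 member probe sets and 24 of the 76 genes of the iron lists, both TA rats of 6 h lay on one side of their vehicle pool and both TA rats of 24 h on the other, as did 15.5% of all probe sets. The values below are of the 3 members and of 11 of the 24 genes, those named by rule in the text above. The effect at 24 h minus that at 6 h (log2) was tested with limma over all probe sets, and none of these 14 passed (adjusted p = 1.0 for each). Among members, it was -0.34 for Slc40a1 on its dimmest probe set, -0.20 for Slc11a2 on its brighter probe set, where TA animal 1 of 24 h rounded to 0.00 from its pool, and 0.86 on its dimmer one. In the BMP and Smad list it was 1.58 for Id1, with TA rats at -1.25 and -0.58 at 6 h and 0.63 and 0.70 at 24 h, and 0.94 for Smad1. It was 0.68 for Il6r and -0.37 for Il6st. It was -0.13 for Aco1, 0.40 for Uros, -0.48 for Ppox, 0.25 for Iscu, 0.39 for Lyrm4, 0.31 for Slc2a1 and 0.17 for Ldha. Both rats of a time share 1 pool, so a pool that stands apart moves both the same way.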

How the results depend on the processing

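No member difference at either time passed an adjusted p of 0.05 under any alternative tried, and the lowest was 0.22. Of 204 alternative values for 14 differences, 191 kept their direction and 13 turned. The cause of the turns was not tested. Many of the 204 could not turn, since the filters, the prior settings and leaving out a TA rat of the other time leave a difference unchanged. The count of 191 therefore overstates how stable the directions were. Sizes moved too, with Tfrc at 0.44 at 6 h and 1.00 at 24 h when both pools formed 1 control group, and Bmp6 at 24 h from -0.52 to -0.03 without 1 TA rat and -0.86 with the pool of the other time. Leaving out 1 TA rat at a time, Hamp at 24 h ranged from -0.98 to 0.90, Tfr2 from -0.02 to 0.12 at 6 h and from -0.12 to 0.05 at 24 h, Slc40a1 at 6 h from -0.02 to 0.12 and Hfe at 6 h from -0.28 to 0.45. The vehicle pool of the other time gave -0.49 for Tfrc and 0.45 for Bmp6 at 6 h, and both pools as 1 control group 0.16 for Bmp6. The replicate block gave -0.02 for Tfrc at 24 h and 0.05 for Bmp6 at 6 h. The fluidics run as a block, by construction the fit without TA animal 2 of 6 h, gave -0.02 for Tfr2 at 6 h. The mean of all its probe sets gave 0.34 for Slc11a2 at 24 h and 0.00 for Bmp6 at 6 h.

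Of all probe sets, limma called 0 at 6 h, 1 at 24 h, 1 for the mean, 1 for the difference of effects and 0 for TA at 24 h against TA at 6 h. The pool of the other time gave 1 at 6 h and 0 at 24 h, and the additive model 0 for the mean and 3 for TA at 24 h against TA at 6 h. The stricter filter, both pools as 1 group, the run block and the replicate block each gave 0 at 24 h, for the mean and for the difference, and the intensity trend 2 at 24 h and 2 for the mean. Without 1 TA rat, counts ranged from 0 to 2 at 24 h and were 0 for the mean and the difference. Members with all TA arrays beyond both pools were 0, but 1 with quantile normalization (Slc40a1), and 0 to 2 without 1 TA rat (Hfe and Slc40a1 without TA animal 2 of 6 h, and Hamp without TA animal 2 of 24 h). At 6 h the pool of the other time turned the median of the BMP and Smad list to 0.06. It turned that of dividing cell markers to -0.91 and that of red cell markers to -0.21. The additive model gives no value for a single time, and the other pool was not applied to the mean or the difference. With 2 rats a group and 1 pool, even the 3.76-fold difference of Hamp at 6 h could not be told from the spread between rats. Nor was Tfrc called at 6 h, at 2.58-fold and with a smaller error (limma, adjusted p = 0.73).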
